A study of Homo sapiens with 5 samples.

Results

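The DNA replication and repair genes form a list of 41 genes that run from origin recognition to the replication checkpoint. They were chosen by function, with earlier results of these data known. Each was taken by its gene symbol, at its probe set (the group of short probes for a transcript) with the highest mean over the 5 arrays. Of these genes, 40 were measured, among 11963 named genes in all, and 1 was not analysed here. They fell into 9 groups by role. These were the MCM2-7 helicase (6 genes), origin recognition and licensing (5), helicase activation and origin firing (5), the sliding clamp with its loader (6), DNA polymerases and primase (7), the single-strand binding protein RPA (3), ribonucleotide reductase (2), Okazaki fragment maturation (2), and repair and checkpoint (5, of which 4 were measured).

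The cells were HES2, an established line of human embryonic stem cells (hESC), transduced with a lentiviral vector that carried either wt hsa-miR-122 (2 arrays, wt replicates 1 and 2) or a mutant form whose seed is changed (3 arrays, mutant replicates 1 to 3). In both groups the vector placed the miRNA behind the H1 promoter and a red fluorescent reporter behind another promoter, the cells were grown on foreskin feeders before differentiation, and they then differentiated spontaneously for 2 weeks with neither feeders nor bFGF. Total RNA was hybridised to Affymetrix human genome arrays, and the values are log2 signals from RMA (robust multi-array average). The comparison asks which transcripts differed between differentiating cells with wt miR-122 and those with the mutant.

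As a model, each group is a transduced pool of a single cell line rather than a clone, and neither untransduced cells nor undifferentiated cells were analysed here, so each difference is wt against mutant miR-122. The array medians (6.32 to 6.36) were made alike by quantile normalization, and the correlations between arrays (0.995 to 0.997) run over all probe sets. Neither can show an array that stood apart for a smaller set of genes. For fibroblast and mesenchymal markers, the median deviation from the mean over the 5 arrays was 0.27 on mutant replicate 3. It was 0.01 and 0.03 on mutant replicates 1 and 2. Of 20 measured hESC markers, 14 lay above the median level of all named genes, NANOG among them, with means of 8.75 in mutant cells and 9.54 in wt cells. The other 6 did not, SOX2 among them, with means of 6.59 in mutant cells and 7.23 in wt cells.

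Replication begins where the origin recognition complex and CDC6 load rings of MCM2-7 onto DNA in G1 phase. Kinases such as CDC7 then recruit CDC45 and the GINS complex, which turn each ring into a moving helicase. RPA coats the exposed strands, primase and polymerase alpha lay down primers, the RFC complex loads the PCNA clamp, and polymerases delta and epsilon copy the strands with nucleotides that ribonucleotide reductase supplies. Many of these genes are E2F targets whose mRNA peaks near the start of S phase, and hESC are known for a short G1 phase with a large share of cells in S phase.

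The sequence that set the groups apart was the mature miRNA of the wt vector, shown for its seed, which the mutant vector changed. Mature hsa-miR-122-5p has 22 bases and lies at chr18:58451088-58451109 on the plus strand (GRCh38.p14, RefSeq). Bases 2 to 8, the seed, are in capitals.

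hsa-miR-122-5p: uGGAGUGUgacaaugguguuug

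All 40 measured genes had a higher mean in wt than in mutant cells, where 58.4% of all named genes did. The differences were small. Their median was 0.17 on the log2 scale, a 1.13-fold higher level, against 0.03 over all named genes, and they ran from 0.0007 for POLE, the catalytic subunit of polymerase epsilon, to 0.36 (1.28-fold) for ORC2, a subunit of the origin recognition complex. No gene of the list passed an adjusted p of 0.05 in limma, whose calls took 0.502% of all named genes, and the lowest adjusted p was 0.098 (limma). An unadjusted p under 0.05 was reached by 15 of 40 (37.5%), all with the higher mean in wt cells, against 8.84% of all named genes in that direction. In the other direction there were 0 of 40, against 6.87% of all named genes. In 30 of 40 (75%) both wt arrays lay above all 3 mutant arrays, against 21.5% of all named genes, and in 0 of 40 both lay below, against 13.4%. With 2 arrays against 3, an exact permutation test of a single gene cannot go below a 2-sided p of 0.1.

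The count at an unadjusted p under 0.05 changed with the array left out. It was 8 of 40 when mutant replicate 1 was left out, where the share over all named genes was 6.63%. It was 5 of 40 when wt replicate 1 was left out, where that share was 6.04%, the median difference was 0.12 and 37 of 40 genes kept the higher wt mean. The latter fit sets 1 wt array against 3, so its spread comes from the mutant arrays alone. In whole cultures such as these, a larger share of replicating cells cannot be told apart from more mRNA per cell.

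The list was expressed well above the middle of the array. Its mean levels over the 5 arrays ran from 6.70 for PRIM2, the large primase subunit, to 10.79 for RPA1, the large subunit of RPA, with a median of 8.48 against 6.91 for all named genes. The 5844 named genes within that range of levels had a median difference of 0.01, 21.9% of them had both wt arrays above all mutant arrays and 54.2% had the higher mean in wt cells.

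**Figure D1:**
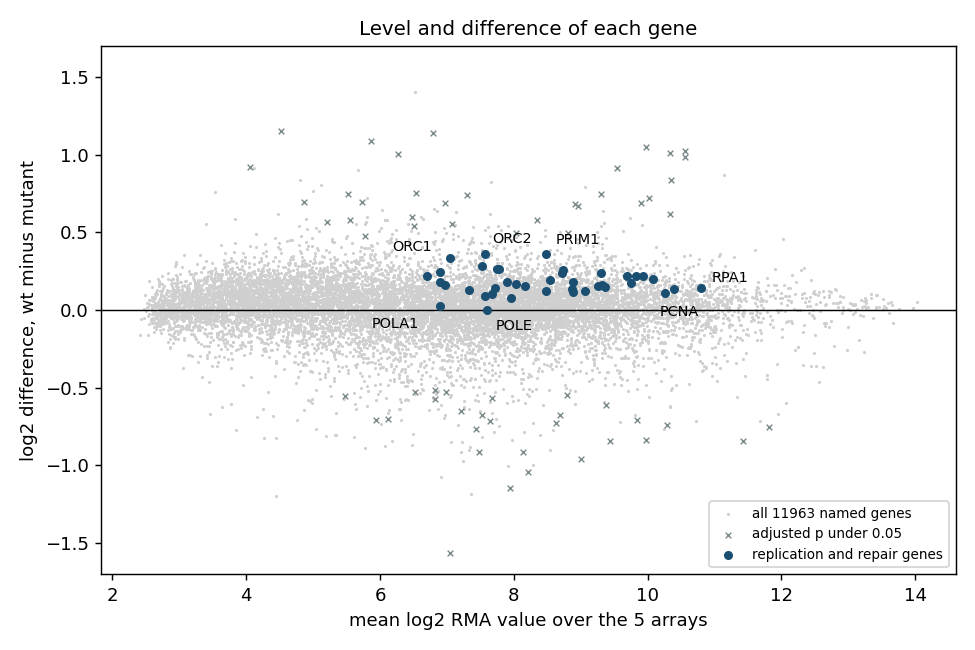
Mean log2 RMA value over the 5 arrays (x axis) against the log2 difference, wt minus mutant (y axis), for all named genes at their brightest probe set (grey), with crosses for adjusted p under 0.05 in limma. The 40 replication and repair genes (dark points) all lie at or above 0, between 0.0007 (POLE) and 0.36 (ORC2), and none carries a cross.

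The arrays of each group were not alike. The gene-wise deviation from the mean over the 5 arrays had a median over the 40 genes of -0.08, -0.10 and -0.04 on mutant replicates 1, 2 and 3, of 0.16 on wt replicate 1 and of 0.05 on wt replicate 2. Wt replicate 1 was above wt replicate 2 for 35 of 40 genes (87.5%), where this held for 55.3% of all named genes. It was the highest of the 5 arrays for 33 genes, and wt replicate 2 was the highest for 5. Against the mean of the mutant arrays, the median was 0.23 on wt replicate 1, with 40 of 40 genes above it, and 0.12 on wt replicate 2, with 37 of 40 above it. The other 3, POLA1, POLD1 and POLE, are all catalytic polymerase subunits.

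**Figure D2:**
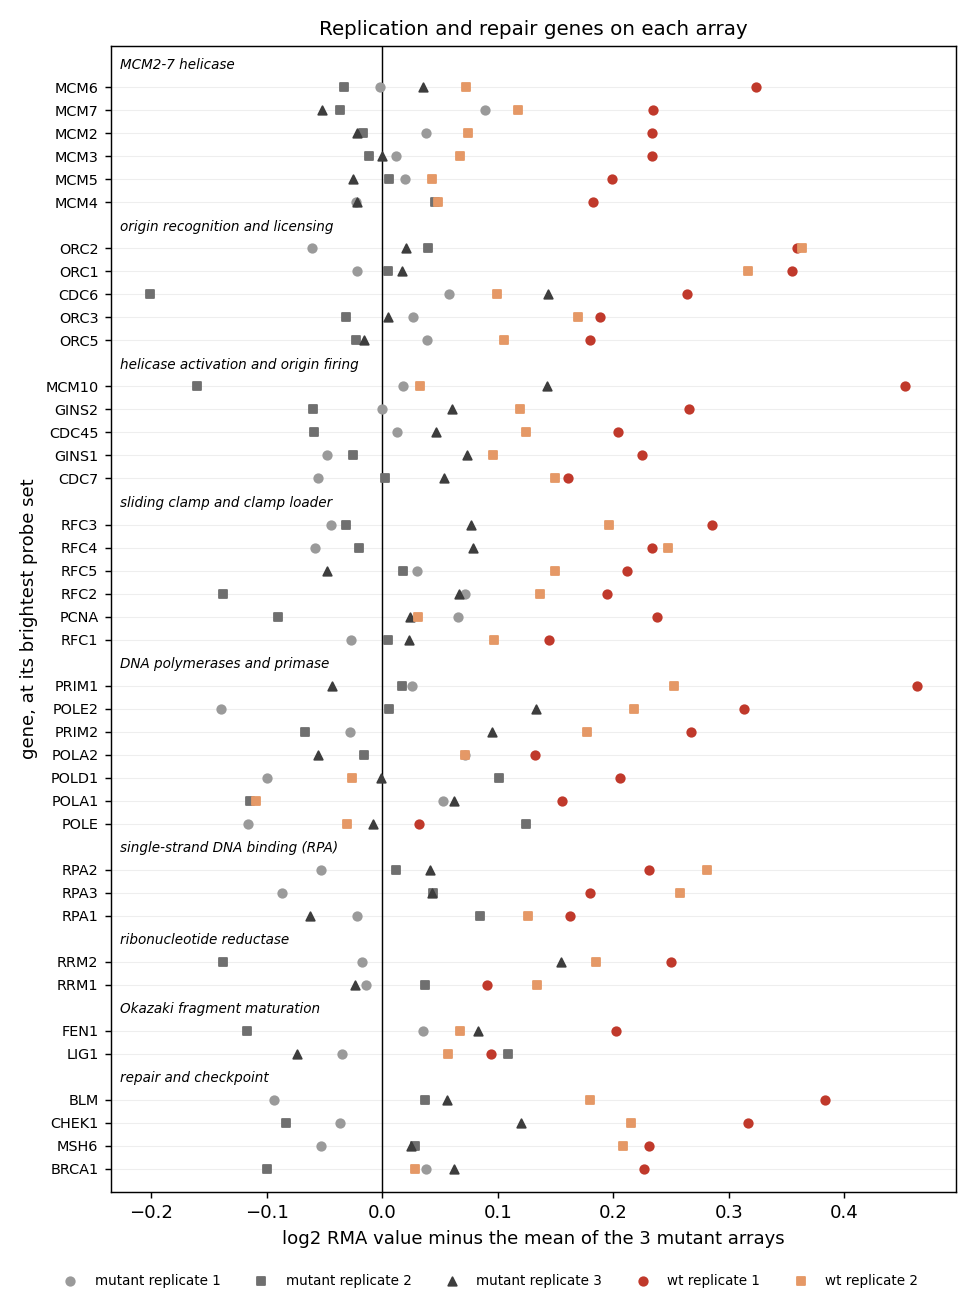
Log2 RMA value of each gene on each of the 5 arrays minus the mean of the 3 mutant arrays (x axis), by role (y axis), with mutant replicates 1 to 3 in grey and wt replicates 1 and 2 in red and orange. Wt replicate 1 lies above 0 for 40 of 40 genes and is the highest array for 33. Wt replicate 2 lies above 0 for 37, close to the mutant arrays for the MCM2-7 genes and close to wt replicate 1 for ORC1 and ORC2.

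Origin recognition genes held the first and the third largest differences of the list. ORC2 was at 7.37, 7.47 and 7.45 on the mutant arrays and at 7.79 and 7.79 on the wt arrays. The wt arrays differed by less than 0.01 and stood clear of all mutant arrays, with a difference of 0.36 (SE 0.07, adjusted p = 0.098, limma). ORC1, the ATPase subunit that recognises chromatin at origins, was at 6.90, 6.92 and 6.94 in mutant cells and at 7.27 and 7.24 in wt cells. Here too the groups did not overlap, and the difference was 0.34 (SE 0.07, adjusted p = 0.106, limma). The other complex subunits measured, ORC3 and ORC5, had differences of 0.18 and 0.14, each with both wt arrays above the mutant arrays. CDC6, the loading factor that recruits MCM2-7, had a difference of 0.18 (SE 0.12) and groups that overlapped, since mutant replicate 3 (6.97) was above wt replicate 2 (6.93).

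At their brightest probe sets, all 6 subunits of the MCM2-7 helicase had both wt arrays above all mutant arrays. None reached an unadjusted p of 0.05, and the differences ran only from 0.12 (MCM4) to 0.20 (MCM6), with a median of 0.15. For MCM4 the groups barely separated, at 8.881 on mutant replicate 2 and 8.884 on wt replicate 2. Groups overlapped at some of the other probe sets of MCM4 and at the second probe set of MCM5, but not at that of MCM7. MCM6 was at 9.96 to 10.03 on the mutant arrays, at 10.32 on wt replicate 1 and at 10.07 on wt replicate 2. Thus wt replicate 1 stood 0.32 above the mutant mean and wt replicate 2 stood 0.07 above it, and the difference was 0.20 (SE 0.09, adjusted p = 0.381, limma). MCM7 was at 9.77, 9.64 and 9.63 in mutant cells and at 9.91 and 9.80 in wt cells, a difference of 0.18 (SE 0.08, adjusted p = 0.387, limma). The same order held for MCM2, MCM3, MCM4 and MCM5, which stood 0.18 to 0.23 above the mutant mean on wt replicate 1 and 0.04 to 0.07 above it on wt replicate 2. In this the helicase subunits differed from ORC1 and ORC2, whose wt arrays lay within 0.04 of each other, although no test compared the groups of genes.

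Genes of helicase activation and origin firing had differences of 0.16 to 0.24. GINS2, a subunit of the GINS complex, was at 8.46, 8.40 and 8.52 on the mutant arrays and at 8.73 and 8.58 on the wt arrays. The groups did not overlap, and the difference was 0.19 (SE 0.08, adjusted p = 0.343, limma). CDC45, which joins MCM2-7 and GINS in the active helicase, was at 6.92, 6.84 and 6.95 in mutant cells and at 7.11 and 7.03 in wt cells, again without overlap, a difference of 0.16 (SE 0.08, adjusted p = 0.382, limma). GINS1 and the kinase CDC7 had differences of 0.16 and 0.16 and both wt arrays above the mutant arrays. MCM10, which helps activate the helicase, had the largest difference of this group at 0.24 but also the largest SE of the list (0.14). It was at 7.25 on wt replicate 1 and at 6.83 on wt replicate 2, within the mutant range of 6.63 to 6.94. Its values, and those of ORC3, ORC5, CDC6, MSH6, POLA1, POLA2, POLD1 and POLE, fall outside the rule for named genes and were chosen after they were seen.

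The clamp loader genes reached lower p values than the clamp itself. RFC4 was at 9.15, 9.19 and 9.29 on the mutant arrays and at 9.44 and 9.45 on the wt arrays, with a difference of 0.24 (SE 0.08, adjusted p = 0.222, limma). RFC3 was at 8.58, 8.59 and 8.70 in mutant cells and at 8.91 and 8.82 in wt cells, with a difference of 0.24 (SE 0.08, adjusted p = 0.23, limma). In both loader subunits all wt values exceeded all mutant values, as they did in RFC1, RFC2 and RFC5 (0.12, 0.17 and 0.18). PCNA, the sliding clamp that holds polymerases on DNA, was at 10.40, 10.25 and 10.36 on the mutant arrays and at 10.58 and 10.37 on the wt arrays. Wt replicate 2 lay within the mutant range, and the difference of 0.13 (SE 0.09, adjusted p = 0.56, limma) was within the spread between arrays.

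The polymerase and primase genes had uneven differences, although no test compared these genes with each other. PRIM1, the catalytic primase subunit that starts each primer, was at 8.37, 8.36 and 8.30 on the mutant arrays and at 8.80 and 8.59 on the wt arrays. The groups did not overlap, and the difference was 0.36 (SE 0.09, adjusted p = 0.135, limma). POLE2, an accessory subunit of polymerase epsilon, was at 7.53, 7.68 and 7.81 in mutant cells and at 7.99 and 7.89 in wt cells, a difference of 0.27 (SE 0.10, adjusted p = 0.273, limma) without overlap. PRIM2, the dimmest gene of the list, was at 6.59, 6.55 and 6.71 and at 6.88 and 6.79, a difference of 0.22 (SE 0.08, adjusted p = 0.285, limma). All other polymerase subunits had groups that overlapped. POLA2, the accessory subunit of polymerase alpha, had a difference of 0.10. For the catalytic subunits POLD1, POLA1 and POLE the differences were 0.09, 0.02 and 0.0007. POLE was at 7.48, 7.72 and 7.59 on the mutant arrays and at 7.63 and 7.57 on the wt arrays, so both wt arrays lay inside the mutant range. The sign of these 3 genes rested on single arrays. Without wt replicate 1 their differences were -0.03 (POLD1), -0.11 (POLA1) and -0.03 (POLE).

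RPA, which protects single-stranded DNA at the fork, and ribonucleotide reductase, which makes deoxyribonucleotides, both lacked overlap in all of their genes at the brightest probe sets. RPA2 was at 8.58, 8.65 and 8.68 on the mutant arrays and at 8.87 and 8.92 on the wt arrays, a difference of 0.26 (SE 0.07, adjusted p = 0.19, limma). RPA3 was at 9.52, 9.65 and 9.65 in mutant cells and at 9.79 and 9.86 in wt cells, a difference of 0.22 (SE 0.08, adjusted p = 0.277, limma). In both of these small subunits wt replicate 2 was the higher of the wt arrays, unlike most of the list. RPA1, the brightest gene, was at 10.71, 10.82 and 10.67 and at 10.90 and 10.86, a difference of 0.14 (SE 0.08, adjusted p = 0.456, limma).

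RRM2, the reductase subunit that is limiting in S phase, was at 9.72, 9.60 and 9.90 on the mutant arrays and at 9.99 and 9.93 on the wt arrays. Mutant replicate 3 came within 0.03 of the lower wt array, and the difference was 0.22 (SE 0.10, adjusted p = 0.367, limma). RRM1, the large subunit, was at 10.19, 10.25 and 10.19 and at 10.30 and 10.34, a difference of 0.11 (SE 0.07, adjusted p = 0.53, limma). The second probe set of RRM2 had groups that overlapped, since mutant replicate 3 (9.49) was above wt replicate 2 (9.42). Those of RRM1 and RPA1 had groups without overlap.

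The genes of Okazaki fragment maturation were among those with the smallest differences. FEN1, the flap endonuclease, was at 8.85, 8.70 and 8.90 on the mutant arrays and at 9.02 and 8.88 on the wt arrays, a difference of 0.13 (SE 0.09, adjusted p = 0.549, limma). LIG1, the ligase that seals the fragments, was at 7.89, 8.03 and 7.85 and at 8.02 and 7.98, a difference of 0.08 (SE 0.08, adjusted p = 0.731, limma). Both overlapped between the groups. For LIG1 the highest array was mutant replicate 2.

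Among the repair and checkpoint genes, BLM, the helicase that resolves recombination structures, was at 7.32, 7.45 and 7.47 on the mutant arrays and at 7.79 and 7.59 on the wt arrays, a difference of 0.28 (SE 0.09, adjusted p = 0.229, limma). CHEK1, the kinase that restrains origin firing when forks stall, was at 7.60, 7.55 and 7.76 in mutant cells and at 7.95 and 7.85 in wt cells, a difference of 0.27 (SE 0.09, adjusted p = 0.236, limma). MSH6, the mismatch recognition subunit, had a difference of 0.22 (SE 0.07). In all 3 genes both wt arrays lay above the mutant arrays. BRCA1, which acts in homologous recombination, had a difference of 0.13 (SE 0.09, adjusted p = 0.578, limma), and mutant replicates 1 and 3 (7.32 and 7.35) lay above wt replicate 2 (7.31).

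Other probe sets of the same genes gave a further reading from the same RNA. The 40 genes had 62 probe sets, of which 60 had the higher mean in wt cells (57.9% of all probe sets tested), 40 had both wt arrays above all mutant arrays (20.3%) and 19 had an unadjusted p under 0.05 with the higher mean in wt cells (8.06%). Of the 22 probe sets that were not the brightest of their gene, 9 had a larger difference than the brightest and 13 a smaller one. The second probe set of CHEK1 had a difference of 0.33 (SE 0.10), that of RFC3 one of 0.38 (SE 0.12) and that of MSH6 next in brightness one of 0.30 (SE 0.08), all among the 9 larger ones, while those of FEN1 and RRM2 had 0.07 (SE 0.08) and 0.15 (SE 0.11), below the brightest. Probe sets disagreed in sign for RFC5 and BRCA1. RFC5 had differences of 0.18 (SE 0.07) at its brightest probe set and of 0.02 (SE 0.10) and -0.05 (SE 0.08) at the others, and BRCA1 had differences of 0.13 and -0.0043. These other probe sets of RFC5 were dimmer, with means of 7.05 and 7.14 against 7.89.

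**Figure D3:**
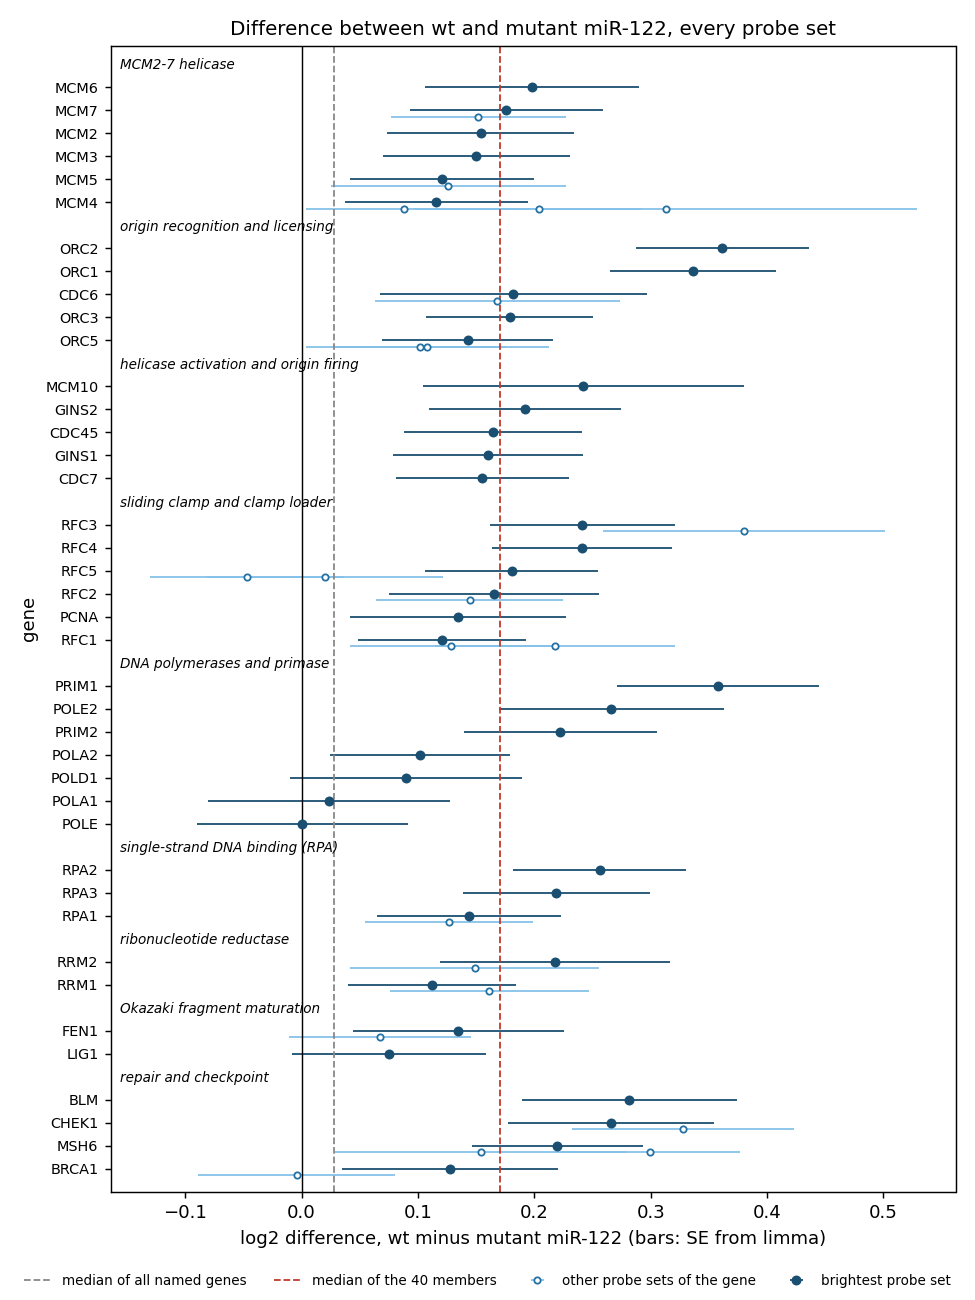
Log2 difference, wt minus mutant, with its SE from limma (x axis) for all 62 probe sets of the 40 genes (y axis, by role), the brightest of each gene filled and the others open. Dashed lines mark the median of the 40 genes (0.17) and of all named genes (0.03). The open points below 0 are the probe sets of RFC5 and BRCA1 that differ in sign from the brightest one.

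RefSeq promoters (GRCh38.p14, 250 bases before to 50 bases after each gene start) were given for 36 of the 40 genes, and not for MCM4, MCM5, RPA2 and RPA3. Matches to 4 E2F-type strings, TTTCGCGC, TTTGGCGC, TTTCCCGC and TTTGCCGC, were counted on both strands, where TTTCGCGC and TTTGGCGC can overlap with matches on the opposite strand. A match stood in 17 of 36 genes (47.2%), against 6.08% of 9563 genes on the array with a promoter of the same length. In the 250 bases before the start alone it stood in 12 of 36 (33.3%), against 5.18%. The string CCAAT, on either strand, stood in 24 of 36 (66.7%), against 44.2%. Genes with and without an E2F-type match had similar differences. The median was 0.16 over the 17 genes with an E2F-type match, from 0.0007 to 0.27, and 0.18 over the 19 without, from 0.09 to 0.36. Exact strings in this window do not show which genes E2F binds, and its part in the differences was not tested.

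Promoter stretches with their match in capitals are shown for RFC3, GINS2 and ORC3, which reached an unadjusted p under 0.05, and for PCNA and POLE, which did not, since all of them hold such a string. Each is written on the strand of its gene. The stretches are chr13:33818054-33818141 (plus strand) for RFC3, chr16:85688955-85689025 (minus strand) for GINS2, chr6:87590083-87590134 (plus strand) for ORC3, chr20:5126634-5126721 (minus strand) for PCNA and chr12:132687343-132687400 (minus strand) for POLE. The match begins 12 (ORC3) to 59 (PCNA) bases before the gene start.

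RFC3: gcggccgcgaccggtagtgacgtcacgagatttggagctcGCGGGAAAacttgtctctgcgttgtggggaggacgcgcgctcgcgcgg

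GINS2: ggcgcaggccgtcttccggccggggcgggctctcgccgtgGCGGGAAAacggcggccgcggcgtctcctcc

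ORC3: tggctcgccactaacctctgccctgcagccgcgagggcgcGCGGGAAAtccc

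PCNA: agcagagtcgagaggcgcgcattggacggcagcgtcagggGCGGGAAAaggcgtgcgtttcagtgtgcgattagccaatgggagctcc

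POLE: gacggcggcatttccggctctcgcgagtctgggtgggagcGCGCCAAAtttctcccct

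RFC3, GINS2, ORC3 and PCNA hold the string TTTCCCGC and POLE holds TTTGGCGC, all on the strand opposite to the gene. Of these genes RFC3, GINS2 and ORC3 had groups without overlap, while the groups of PCNA and POLE overlapped.

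Other genes of DNA replication and repair came from 8 lists. Of 149 listed genes 131 were measured, with a median difference of 0.09. The wt mean was higher in 101 (77.1%, against 58.4% of all named genes). Both wt arrays lay above all mutant arrays in 54 (41.2%, against 21.5%) and below them in 9 (6.87%, against 13.4%). An unadjusted p under 0.05 was reached by 24 with a higher wt mean (18.3%, against 8.84%). It was reached by 2 of 131 with a lower wt mean, against 6.87% of all named genes. None of the 131 passed the adjusted p of 0.05 in limma, but with a trended robust prior CHEK2 (adjusted p = 0.046, limma) and RAD51AP1 (adjusted p = 0.0463, limma) did, with a replicate block 4 did, and with the mean over the probe sets of a gene 1 did. The 28 further replication factors had a median of 0.12, which was 0.17, as in the 40, once dim probe sets were left out and 0.12, as in the 40, without wt replicate 1. DNA2, a nuclease and helicase, had a difference of 0.40 (SE 0.09), with 7.49, 7.69 and 7.55 on the mutant arrays and 8.03 and 7.92 on the wt arrays, and CDT1, the partner of CDC6 in loading MCM2-7, had one of 0.35 (SE 0.09). Nucleotide supply (12 genes) had a median of 0.11, led by SAMHD1 at 0.37, which degrades deoxynucleotides, and CAD at 0.26, which starts pyrimidine synthesis. SAMHD1 was dim, at 4.38 in mutant and 4.75 in wt cells, against a median level of 6.91 over all named genes. Chromatin assembly and maintenance methylation (10 genes) had a median of 0.10, and all 10 had the higher wt mean, with HELLS at 0.31 and the histone chaperone NASP at 0.16.

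The repair lists were less even, and their medians moved with the setting. Homologous recombination and Fanconi genes (28) had a median of 0.08, with RAD51AP1 at 0.34 and PALB2 at 0.29, and 9 of 28 had the lower wt mean. The median of this list was 0.03 without wt replicate 1 and 0.15 without wt replicate 2. Mismatch repair (3 genes) had a median of 0.12, with PMS1 at 0.14 and MSH3 at 0.12, and end joining (8 genes) one of 0.11, with the kinase PRKDC at 0.27 and LIG4 at -0.15. Excision repair (27 genes), which acts outside S phase as well, had a median of 0.01, close to that of all named genes, with 10 of 27 lower in wt cells, UNG at 0.23 and ERCC5 at -0.23. The checkpoint list (15 genes) had a median of 0.05 (0.01 to 0.11 over the alternatives), although CHEK2, the kinase activated by strand breaks, had one of the largest differences of all these genes at 0.38 (SE 0.08, adjusted p = 0.0926, limma), and CDC25A was at 0.23.

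Of the lists of other cell cycle genes and of cell types, some leaned to a group and others did not. All 30 measured genes of mitosis and proliferation had the higher wt mean, with a median of 0.23. Of these, 27 were higher without overlap (90%, against 21.5% of all named genes). The adjusted p of 0.05 in limma was passed by 0, and 20 had an unadjusted p under 0.05 (66.7%, against 8.84%). NUSAP1 was at 0.37 and passed with a trended robust prior (adjusted p = 0.046, limma) and with a replicate block (adjusted p = 0.0327, limma). CDC25C was at 0.31, but at -0.02 without probe sets that match several transcripts. The summed linear level of this list was 22849 to 23883 in mutant and 26514 to 28313 in wt cells, while that of the 40 replication and repair genes was 17913 to 18304 and 19760 to 21029. The 19 measured E2F factors and G1/S regulators did not share this, with 10 higher and 9 lower, a median of 0.02, TFDP2 at 0.31 and RBL1 at -0.30. RBL1 was dim, at 4.46 in mutant and 4.16 in wt cells.

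Of 28 listed markers of undifferentiated hESC, 20 were measured. This list, like the others, was chosen with earlier results of these data known. All 20 had the higher wt mean (58.4% of all named genes did), with a median of 0.45. Of these, 6 passed the adjusted p of 0.05 in limma (PTPRZ1, DNMT3B, JARID2, UTF1, POLR3G and FGF4). These calls, and those of the trophoblast markers, ended in the methods' t-test and in each fit that left out an array, except that of PTPRZ1 without wt replicate 1. Their summed linear level was 11566 to 12879 in mutant and 16306 to 16607 in wt cells. Fibroblast and mesenchymal markers, which the feeders also express, had the lower wt mean in 20 of 26, with a median of -0.33 (-0.14 without probe sets that match several transcripts and -0.21 without wt replicate 1 or without mutant replicate 3), PDGFRB at -0.56, COL1A1 at -0.60 and summed levels of 52281 to 61204 and 41792 to 43105. Trophoblast markers had the lower wt mean in 16 of 19, with a median of -0.20, 3 of them past the adjusted p of 0.05 in limma (HSD3B1, VTCN1 and GABRP), and summed levels of 24076 to 25904 and 19237 to 21877. Endoderm and hepatic markers had the higher wt mean in 17 of 21, though only 2 lay without overlap above and 2 below, and differences ran from -0.82 to 0.91 (HHEX), with CXCR4 at 0.65. Their median of 0.24 was 0.08 without wt replicate 1 or without mutant replicate 2 and 0.44 without wt replicate 2, and their sums overlapped between the groups (1238 to 1929 and 1556 to 2218). HHEX was dim, at 3.75 in mutant and 4.66 in wt cells. The median level of this list was 4.95 to 5.48 over the arrays, against 6.91 for all named genes. Only 6 of its 21 genes remained once dim probe sets were left out. Neural markers had the higher wt mean in 8 of 12, with a median of 0.05 and sums of 10430 to 11509 and 10707 to 10992. The 2 with the smallest p were both lower, NES at -0.26 and STMN2 at -0.57, which overlapped between the groups and was at -0.23 without wt replicate 1. RMA gives no value of 0, so no marker could be called absent. The part of the mixture of cell types in the differences of the replication and repair genes was not tested.

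**Figure D4:**
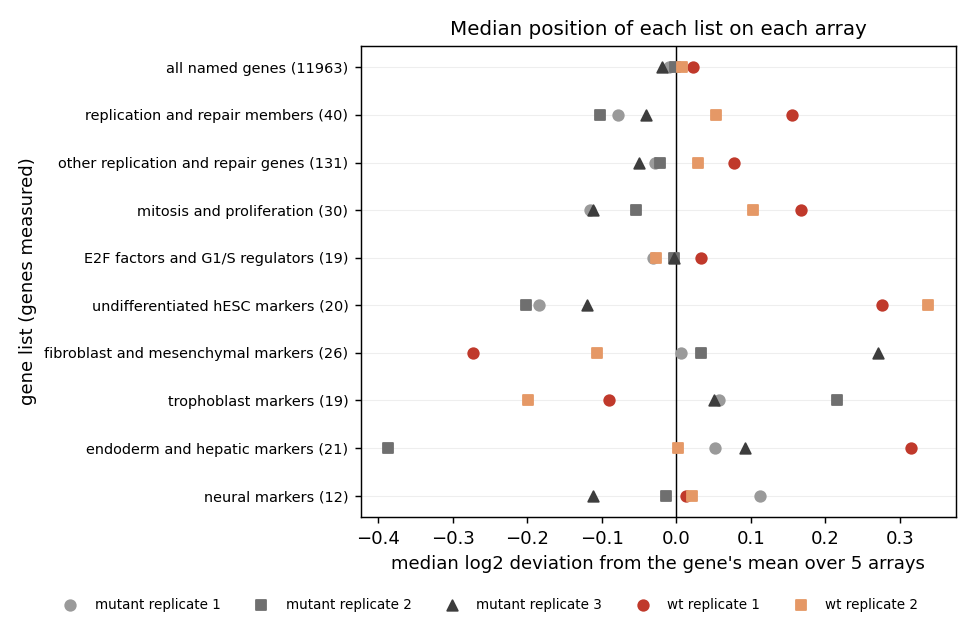
Median over each gene list (y axis, with the number of genes measured) of the log2 deviation from the gene's mean over the 5 arrays (x axis), 1 symbol per array. For the 40 replication and repair genes both wt arrays lie above the mutant arrays, wt replicate 1 at 0.16 and wt replicate 2 at 0.05, whereas for the hESC markers wt replicate 2 is the higher of the wt arrays and for the fibroblast markers both wt arrays lie below the mutant arrays.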

How the data were processed

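RNA of HES2 cells was hybridised to 5 one-colour Affymetrix arrays. The deposited table holds log2 values that the authors computed with RMA (background correction, quantile normalization and summary per probe set), as the submitters' processing notes also name. No probe signals were used here. The methods describe 3 mutant and 2 wt independent experiments. Where cultures were not separate, p-values would measure technical spread only. Array data carry no read depth, so the number of arrays limits the precision.

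Of 22277 probe sets, 62 controls were left out and 22215 tested with limma 3.58.1 (lmFit and eBayes, R 4.3.3; a term for group alone, p-values adjusted after Benjamini and Hochberg over all probe sets). The test was first checked on simulated data. Probe sets were named through the platform annotation (19064 with 1 gene, 1043 with several and 2108 unnamed; only the first were used). Lists were described by counts and medians, beside all named genes at their brightest probe set. Summed levels are sums of linear values. The members and all lists were chosen with earlier results of these data known. Values on the arrays were given for the 2 genes per role with the smallest limma p, PCNA, RRM2 and the brightest and the dimmest gene. Differences were given for genes whose probe sets differ in sign. In other lists, genes past the adjusted p or else the 2 with the smallest p were named, most of them without their array values. Alternatives were the methods' t-test, a trended robust prior, a filter on dim probe sets, array weights, centring, a replicate block, averaging the probe sets of each gene, leaving out each array and leaving out probe sets shared between transcripts.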

Additional observations from a re-analysis of the deposited data

How the results depend on the processing

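None of the 40 genes passed the adjusted p of 0.05 in limma under any of the alternatives but the replicate block, which left 1 residual degree of freedom and called 1 of them, ORC2 (adjusted p = 0.042). The block also called DNA2, EXO1, RAD51AP1 and CHEK2 of the 131 other replication and repair genes, the trended robust prior called CHEK2 and RAD51AP1, and the mean over probe sets called WDHD1 (EXO1 and WDHD1 fall outside the rule for named genes and were named after their values were seen). Over all named genes the calls numbered 60, against 0 in the methods' t-test, 220 with the trended robust prior, 111 without dim probe sets, 113 with the mean over probe sets and 532 with the block, and 0 to 3 where an array was left out. No source states that shared numbers mark pairs, and the check could not decide it: same-numbered deviations correlated at 0.147 and 0.123, but with 2 wt arrays the deviations of one mirror those of the other. Leaving out 1 array gave 5 to 14 genes at an unadjusted p under 0.05 (15 with all arrays), 30 to 38 genes without overlap (30), while the share without overlap over all named genes was 27.3% to 36.0% (21.5%), since fewer arrays overlap less readily, and a median difference of 0.12 to 0.23 (0.17). Leaving out mutant replicate 1 gave 8 such genes and leaving out wt replicate 1 gave 5, and the median was 0.12 without the wt array of replicate 1 and 0.23 without that of replicate 2. Of 509 differences of single genes of the list under the alternatives, 502 were above 0. These are not 509 separate checks of direction. The methods' t-test, the trended robust prior and the filter on dim probe sets left every difference of the list as it was. The replicate block gave the same differences as the fit without mutant replicate 3. The other 7 were those of 3 genes. POLE was at -0.0032 with the replicate block and, over the fits that left out an array, at -0.0573 (without mutant replicate 1) to 0.0628, with -0.0032 without mutant replicate 3 and -0.0303 without wt replicate 1. POLA1 was at -0.109 (without wt replicate 1) to 0.156, with -0.0342 without mutant replicate 2, and POLD1 at -0.0262 (without wt replicate 1) to 0.206. Outside the list, CDC25C was at -0.0225 without probe sets that match several transcripts, a setting that left 29 of the 40 genes, and the median of the E2F and G1/S list was -0.0092 (without wt replicate 1) to 0.0588. Without probe sets that match several transcripts, the mismatch repair list had no gene left. The cause of these changes of sign was not tested beyond the fewer arrays or probe sets that enter each fit. Differences of the size seen in most of the list (median SE of a probe set 0.09) are near the precision that 5 arrays allow.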
